A study of Mus musculus with 5 samples.

Results

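Rbfox2 (older symbol Rbm9) was described through its cassette exons, which are either kept in or left out of a transcript, in the left ventricle of mice made diabetic with streptozotocin. All skipped-exon events of the gene in the deposited splicing tables were taken, which gave 2 of 6616 exons, a 43-nt and a 40-nt exon. The files name the gene for the 40-nt exon, and the 43-nt exon was named because its length and those of its flanking introns match an annotated Rbfox2 exon. The STZ group held 3 libraries from C57BL/6 mice that received intraperitoneal streptozotocin at 70 mg/kg on 5 consecutive days from 8 weeks of age. The Control group held 2 libraries from C57BL/6 mice injected with citrate buffer on the same schedule, and all mice were 12 weeks old. Streptozotocin is toxic to pancreatic beta cells, the source of insulin, and models type 1 diabetes. The labels do not say whether each library came from a separate animal, so p-values measure only the spread between these libraries.

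The tables name the libraries by codes, and which are STZ and which Control was taken from the group sizes alone. The codes fall into 2 name series, 1 for each group, so handling by series and the treatment cannot be told apart. The libraries are called STZ A, STZ B, STZ C, Control A and Control B. Their reads over all events numbered 12692236 to 14913419 in STZ and 17154734 to 20963751 in Control.

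RBFOX2 is an RNA-binding protein that recognises the element UGCAUG in pre-mRNA. In general, an exon tends to be included when RBFOX binds downstream of it and skipped when it binds upstream, and RBFOX proteins shape splicing in heart, skeletal muscle and brain. RBFOX transcripts are themselves alternatively spliced, and towards the 3′ end of the coding region a 43-nt exon is known as the muscle-type exon and a 40-nt exon as the brain-type exon.

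Both exons lie on the minus strand of chromosome 15 in the mouse build mm9. The 43-nt exon is at chr15:76922242-76922284, between an upstream exon of 145 nt and a downstream exon of 89 nt, with introns of 6085 and 5656 nt. The 40-nt exon is at chr15:76924881-76924920, inside the intron upstream of the 43-nt exon. Its event runs from the same 145-nt exon to the 43-nt exon, so the downstream neighbour of one cassette exon is the other cassette exon. The event of the 40-nt exon therefore lies within that of the 43-nt exon, and the events share reads. Each exon has a length that leaves a remainder of 1 after division by 3, so skipping either alone shifts the reading frame. The sequences show the cassette exons and the joins that the reads of these events distinguish, except that from the 43-nt to the 89-nt exon. In the joins, 20 bases of each exon are given, and capitals mark the exon that follows the 145-nt or the 40-nt exon. All come from the GENCODE vM21 transcripts (build GRCm38).
43-nt exon: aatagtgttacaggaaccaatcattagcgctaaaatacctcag
40-nt exon: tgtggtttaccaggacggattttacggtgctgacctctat
145 to 43: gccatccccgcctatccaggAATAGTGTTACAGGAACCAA
145 to 89: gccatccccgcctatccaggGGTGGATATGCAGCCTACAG
145 to 40: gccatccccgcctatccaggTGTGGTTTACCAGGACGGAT
40 to 43: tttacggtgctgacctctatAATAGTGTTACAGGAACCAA

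The 43-nt exon has a GC content of 37.2% and the 40-nt exon of 47.5%. Neither exon holds the RBFOX element TGCATG or its core GCATG on either strand. Among annotated exons of the same length, TGCATG is in 2.10% of 428 exons of 43 nt and in 0.38% of 263 exons of 40 nt. GCATG, which every TGCATG holds, is in 4.67% and 4.56% of them. These counts concern the exons alone, since the introns beside them were not searched here.

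In the annotation, 8 Rbfox2 transcripts run from the 145-nt exon, or from a shorter form of it of 133 nt, to the 89-nt exon. The 145-nt form differs by 12 bases at its start, gtctccctttag, which keep the frame. Of these transcripts, 2 hold the 43-nt exon alone, 4 hold the 40-nt exon alone, 2 hold neither and 0 hold both. The 6 transcripts with either exon share a coding end, with 42 coding nt in the last exon. The 2 transcripts with neither exon end elsewhere, with 52 and 71 coding nt in the last exon. Of the transcripts with the 40-nt exon, 3 start from the 145-nt form and 1 from the 133-nt form, while those with the 43-nt exon or with neither all have the 133-nt form. Neither isoform of the 43-nt event, nor the skipping isoform of the 40-nt event, thus matches an annotated transcript with the 145-nt exon of the tables. The including isoform of the 40-nt event, in which the 40-nt exon is joined to the 43-nt exon, matches none with either form.

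**Figure D1:**
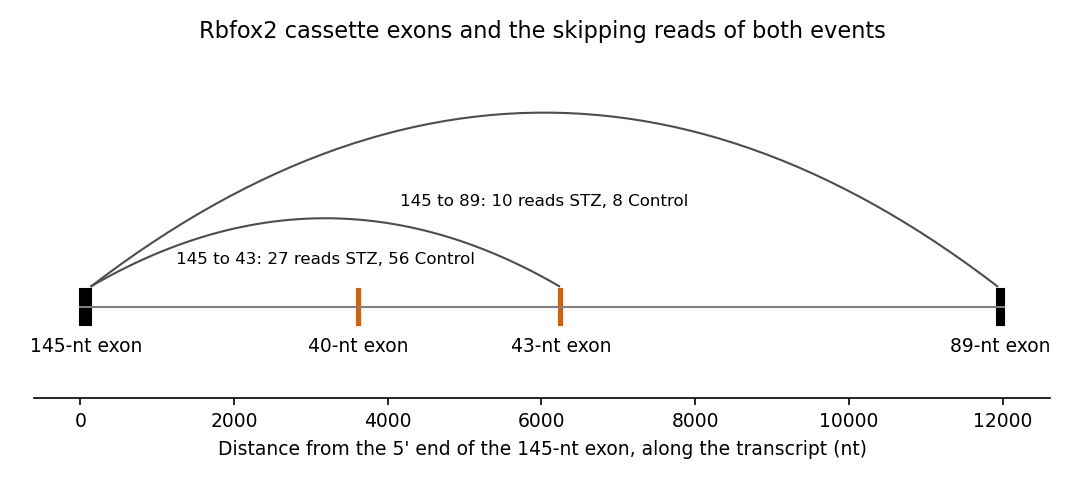
Map of the Rbfox2 region with distance along the transcript in nt on the horizontal axis, boxes for exons and arcs for the joins read by the exclusion-only reads of each event. The join from the 145-nt to the 43-nt exon had 27 reads over the STZ libraries and 56 over the Control libraries. The join from the 145-nt to the 89-nt exon had 10 over STZ and 8 over Control. Reads of a join do not by themselves tell the 145-nt exon from its 133-nt form, which has the same end.

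The first question was whether diabetes goes with a change in how often each exon is included. The measure is Psi, as the authors computed it with MISO. It is the estimated fraction of the including isoform among the including and skipping isoforms of an event. The annotated transcripts with the 40-nt exon alone, 4 of 8, are an isoform of neither event. Their reads within the 40-nt exon, or joining it to the exon upstream, still fit the including isoform of the 40-nt event. Psi of the 40-nt exon can therefore hold reads of these transcripts, and their part in it was not tested. The 43-nt exon was the mainly included exon in every library. Its Psi was 0.69, 0.89 and 0.85 in STZ A, STZ B and STZ C, against 0.87 and 0.93 in Control A and Control B. STZ A stood lowest, STZ B lay between the Control libraries, and the groups overlapped. At 42.9% of tested exons the groups did not overlap.

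Psi of the 43-nt exon averaged 0.81 ± 0.106 in STZ and 0.90 ± 0.0424 in Control (SD, n = 3 and n = 2). The difference of -0.09, with a 95% interval from -0.30 to 0.12, did not pass the test. On the logit scale used for testing, STZ minus Control was -0.70 with a standard error of 0.51, a 95% interval from -2.17 to 0.76 and an adjusted p of 0.435 (limma, Benjamini-Hochberg over 4769 exons). Of all tested exons, 15% were called at an adjusted p under 0.05, 10.1% lower and 4.84% higher in STZ. A model of the reads themselves gave an adjusted p of 0.398 for the 43-nt exon, with 22.4% of exons called. The interval holds falls and rises alike, so the direction was not resolved at this depth.

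The STZ libraries were more spread than the Control libraries at this exon, a difference in spread that was not tested. Their Psi of the 43-nt exon spanned 0.20, against a span of 0.06 in Control. STZ A lay 0.18 below the mean of STZ B and STZ C, which was 0.87. The SD over the STZ libraries was larger in 7.61% of all tested exons, and that over the Control libraries in 17.9%. These ranks were not matched for depth, and 22.6% of tested exons had fewer informative reads than this exon. Without STZ A the logit difference was -0.33, and without Control B it was -0.36, each nearer to 0 than with all libraries. No setting that was run brought the 43-nt exon past the threshold, and the adjusted p ranged from 0.369 to 0.836.

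Within its event, the 40-nt exon was mainly skipped in every library. Its Psi was 0.11, 0.16 and 0.14 in STZ A, STZ B and STZ C, against 0.10 and 0.14 in Control A and Control B. The values of the groups lie within each other, with STZ B the highest and Control A the lowest. Psi of the 40-nt exon averaged 0.137 ± 0.0252 in STZ and 0.12 ± 0.0283 in Control (SD, n = 3 and n = 2). The difference of 0.0167 had a 95% interval from -0.0491 to 0.0824 on untransformed Psi. The logit difference was 0.15 with a standard error of 0.21 and a 95% interval from -0.45 to 0.75. Its adjusted p was 0.705 (limma, Benjamini-Hochberg), and its sign turned without Control A, to -0.04. Both intervals hold falls and rises alike, so the direction was not resolved.

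**Figure D2:**
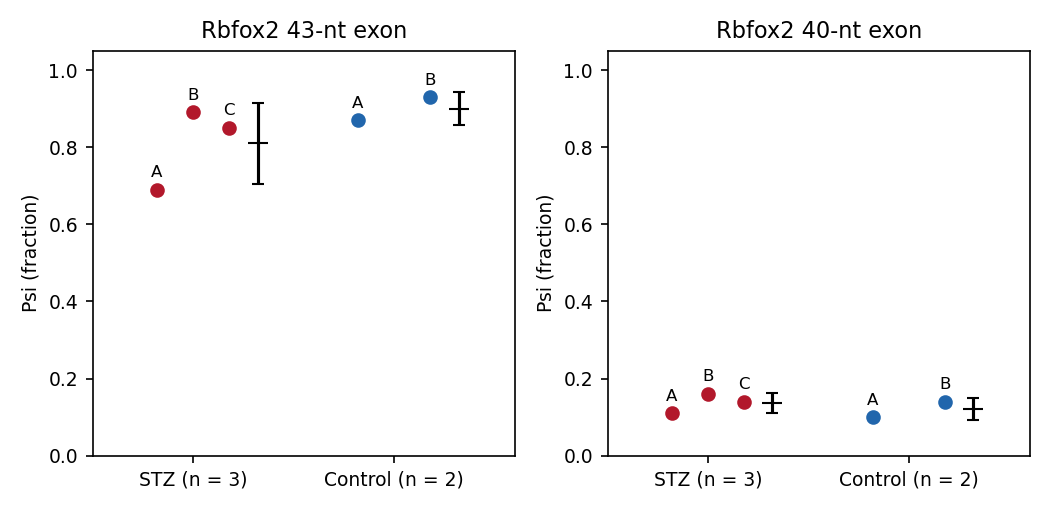
Psi (fraction, from 0 to 1) of the 43-nt exon on the left and the 40-nt exon on the right in each STZ library (A to C) and each Control library (A and B), with the group mean and SD as a bar beside the points. For the 43-nt exon STZ A sits at 0.69 and the other libraries at 0.85 to 0.93, and for the 40-nt exon every library sits between 0.10 and 0.16.

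The number of reads behind these values was small. Reads are informative when they fit only the including or only the skipping isoform, which are called inclusion-only and exclusion-only reads. For the 43-nt exon the inclusion-only and exclusion-only reads numbered 37 and 7 in STZ A, 27 and 1 in STZ B, and 28 and 2 in STZ C. They numbered 62 and 5 in Control A and 107 and 3 in Control B. STZ A thus had the most skipping reads of any library, and no library had more than 7.

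The share of inclusion-only among informative reads also put STZ A lowest and Control B highest, with the counting error shown. For the 43-nt exon it was 0.841 in STZ A (exact Clopper-Pearson 95% interval 0.699 to 0.934), 0.964 in STZ B (0.817 to 0.9991) and 0.933 in STZ C (0.779 to 0.992). It was 0.925 in Control A (0.834 to 0.975) and 0.973 in Control B (0.922 to 0.994). The interval of STZ A overlaps those of the other 4 libraries. The intervals cover counting error only, because reads of an amplified library are not independent molecules. The means of this share for the 43-nt exon were 0.913 ± 0.0642 in STZ and 0.949 ± 0.0334 in Control (SD, n = 3 and n = 2). An including isoform offers an additional junction to read, and with inclusion-only reads weighted by 0.5 the shares were 0.726, 0.931 and 0.875 in STZ A to C, against 0.861 and 0.947 in Control A and B. On that weighting STZ A and Control A were the lowest libraries of their groups, as they were for Psi.

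For the 40-nt exon the inclusion-only and exclusion-only reads numbered 2 and 11 in STZ A, 4 and 8 in STZ B, and 2 and 8 in STZ C, against 4 and 16 in Control A and 12 and 40 in Control B. The shares were 0.154 (0.0192 to 0.455), 0.333 (0.0992 to 0.651) and 0.20 (0.0252 to 0.556) in STZ A to C, against 0.20 (0.0573 to 0.437) and 0.231 (0.125 to 0.368) in Control A and B. All of these intervals overlap one another. Summed over libraries, the 40-nt exon rested on 8 inclusion-only and 27 exclusion-only reads in STZ and on 16 and 56 in Control.

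The exclusion-only reads of the events name the exon that was joined to the end of the 145-nt exon. Its shorter 133-nt form has the same end, so a read of a join does not by itself tell these forms apart. In these counts the 145-nt exon stands for either form. An exclusion-only read of the 40-nt event joins the 145-nt exon to the 43-nt exon, and one of the 43-nt event joins it to the 89-nt exon. The join to the 43-nt exon was read 11, 8 and 8 times in STZ A, STZ B and STZ C, against 16 and 40 times in Control A and Control B. The join to the 89-nt exon was read 7, 1 and 2 times in the STZ libraries, against 5 and 3 times in the Control libraries. In every library the join to the 43-nt exon was read more often.

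The join to the 43-nt exon made up 0.611 of these joins in STZ A (exact 95% interval 0.358 to 0.827), 0.889 in STZ B (0.518 to 0.997) and 0.80 in STZ C (0.444 to 0.975). It made up 0.762 in Control A (0.528 to 0.918) and 0.930 in Control B (0.809 to 0.985). The groups overlapped, at means of 0.767 ± 0.142 in STZ and 0.846 ± 0.119 in Control (SD, n = 3 and n = 2), and no test was run. Reads that run on through the 43-nt exon into the 89-nt exon belong to neither isoform of the 40-nt event, so this share is not corrected for length. STZ A was lowest and Control B highest, as in the Psi of the 43-nt exon, with which this share has reads in common.

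The authors compared each STZ library with each Control library, giving 6 comparisons for each exon. In the authors' deposited table, the 43-nt exon had a Bayes factor of 2343.39 for STZ A against Control B, with a Control minus STZ difference of Psi of 0.24. STZ A against Control A had a Bayes factor of 3.98 and a Control minus STZ difference of 0.18 in the authors' deposited table. The other comparisons of the 43-nt exon in the authors' deposited tables had Bayes factors of 0.16 to 0.23 and differences between -0.02 and 0.08. Taking a Bayes factor of 10 or more together with a difference of 0.20 or more as a pass, 1 of 6 comparisons passed for the 43-nt exon and 0 of 6 for the 40-nt exon. Such a pass in at least 1 of 6 comparisons was found for 20.9% of all exons, and in all 6 for 3.22%. The comparisons share libraries, and a Bayes factor between 2 libraries does not measure the spread within a group. For the 40-nt exon the Bayes factors in the authors' deposited tables were 0.16 to 0.29.

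The 43-nt exon had 55.8 informative reads per library on average, and 22.6% of tested exons had fewer. Its absolute change of Psi was exceeded by 27.6% of all tested exons and by 35.0% of the 1102 exons within 1.5 times its depth. Of these 1102 exons, 13.6% were called, near the share over all exons. The 40-nt exon had 21.4 informative reads per library on average, and only 2.58% of tested exons had fewer. Its change was exceeded by 65.9% of all tested exons and by 77.7% of the 440 exons of like depth, of which 7.50% were called. In size of change neither exon stood apart from other exons read as deeply. The median exon changed by -0.01 and had an SD of Psi of 0.0231 over STZ and 0.0141 over Control.

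**Figure D3:**
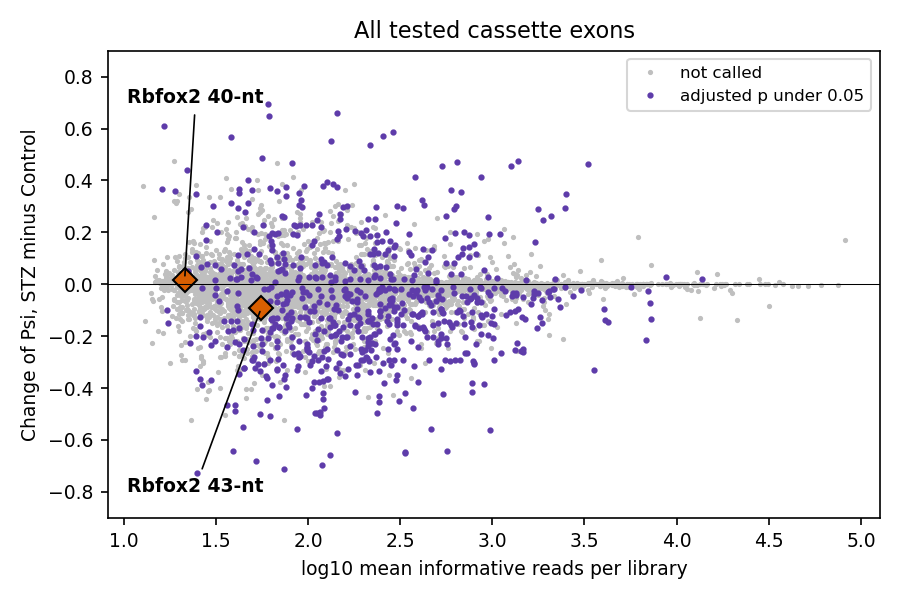
Change of Psi (STZ minus Control) against the log10 of the mean number of informative reads per library for the 4769 tested exons, with exons at an adjusted p under 0.05 in purple, the rest in grey and the Rbfox2 exons as orange diamonds. The 43-nt exon sits at -0.09 with 55.8 reads and the 40-nt exon at 0.0167 with 21.4 reads, both among exons that were not called.

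The second question was how much of the Rbfox2 transcript was read in each group. Reads of an event fall into 4 classes: inclusion-only, exclusion-only, both isoforms or neither. Counted over all 4 classes and per 1000000 such reads of the library (RPM), fewer reads of both Rbfox2 events were found in STZ than in Control. The reads that fit both isoforms, 2 to 12 in a library and too few to test, gave log2 differences of -0.42 for the 43-nt event and 0.58 for the 40-nt event, the reverse direction for the 40-nt event. The 43-nt event had 33.9, 23.9 and 24.4 RPM in STZ A, STZ B and STZ C, against 54.6 and 46.4 in Control A and Control B. Every STZ library lay below every Control library, as did 46.7% of all events. The means were 27.4 ± 5.65 in STZ and 50.5 ± 5.80 in Control (SD, n = 3 and n = 2).

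The 40-nt event had 15.8, 11.6 and 11.7 RPM in STZ A, STZ B and STZ C, against 31.2 and 28.6 in Control A and Control B. The groups again did not overlap, with means of 13.0 ± 2.43 in STZ and 29.9 ± 1.86 in Control (SD, n = 3 and n = 2). In both events STZ A was the highest of the STZ libraries and Control A the higher of the Control libraries.

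The median of all events fell by 0.26 on the log2 scale under this scaling, so changes were tested after setting that median to 0. The 43-nt event then fell by 0.64 on the log2 scale in STZ (standard error 0.18, 95% interval -1.06 to -0.23, adjusted p = 0.0173 by limma over 6331 events). The 40-nt event fell by 0.96 (standard error 0.17, 95% interval -1.37 to -0.55, adjusted p = 0.00311). Over all events, 54.4% were called in this measure and 27.2% were called lower in STZ. The change of the 43-nt event stood at percentile 23.3 of all events and that of the 40-nt event at percentile 15.1, counted from the lowest. Both falls are therefore of a size that many events had in these libraries.

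The call of the 43-nt event depended on which libraries were used. Its adjusted p was 0.161 without Control A, 0.0684 without Control B and 0.0625 without STZ B, with log2 changes of -0.53, -0.75 and -0.60. It held without STZ A (-0.76, adjusted p = 0.00217) and without STZ C (-0.57, adjusted p = 0.0406, limma). The 40-nt event kept its call without any 1 of the 5 libraries, at an adjusted p of up to 0.0449. The events are overlapping stretches of the same gene, so they do not count as 2 independent results. In heart tissue, fewer cells of a type and less RNA per cell cannot be told apart.

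Reads that fit at least 1 isoform were a small part of these reads. Of all reads of the 43-nt event, 90.5%, 89.9% and 88.7% fitted neither isoform in STZ A, STZ B and STZ C, against 92.0% and 87.4% in Control A and Control B. For the 40-nt event the share was 92.8%, 88.7% and 91.9% in the STZ libraries, against 95.5% and 90.8% in the Control libraries. The median event had 58.7% to 59.4% such reads in STZ and 58.3% to 59.7% in Control. The files do not say what these reads are, and 13.1% to 17.9% of events had a larger share of them than the 43-nt event in the 5 libraries.

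Per 1000000 reads that fit an isoform, the 43-nt event had 6.33, 4.56 and 5.19 RPM in STZ A, STZ B and STZ C, against 8.12 and 10.7 in Control A and Control B. Every STZ library was below every Control library in this measure, as in 38.9% of all events. The fall of the 43-nt event was 0.66 on the log2 scale after median centring (standard error 0.24, adjusted p = 0.0477 by limma), where 48.4% of events were called and 24.7% were called lower. This call was at the edge of the threshold: the adjusted p was 0.0505 with a pseudocount of 5 reads and 0.126 with quantile normalization. It was also lost without STZ B, STZ C, Control A or Control B, at adjusted p-values of 0.116, 0.0821, 0.104 and 0.365.

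The 40-nt event had 2.24, 2.48 and 1.78 RPM of such reads in STZ A, STZ B and STZ C, against 2.60 and 4.81 in Control A and Control B. STZ B lay close to Control A, without overlap of the groups. The log2 difference of the 40-nt event was -0.56 with a 95% interval from -1.36 to 0.25 and an adjusted p of 0.227 (limma), so in the reads that fit an isoform the 40-nt event did not pass the test. That difference was -0.99 without Control A and -0.12 without Control B. Reads that fit neither isoform fell by 0.62 at the 43-nt event (adjusted p = 0.0223) and by 0.97 at the 40-nt event (adjusted p = 0.00293, limma), where 26.3% of events were called lower. The call of the 40-nt event over all classes thus came with a call in the reads that fit neither isoform and without one in the reads that fit an isoform.

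**Figure D4:**
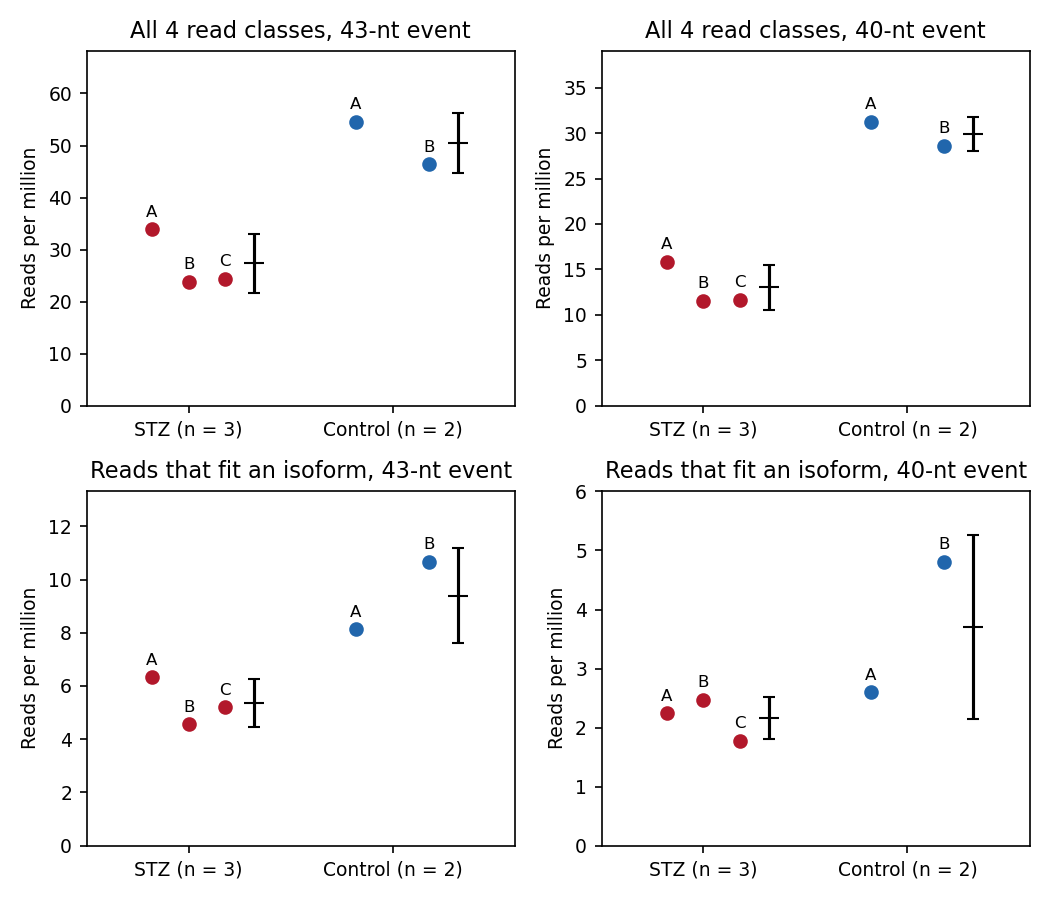
Reads per 1000000 (RPM) of the 43-nt event (left) and the 40-nt event (right) in each STZ and Control library, over all 4 read classes in the top row and over the reads that fit an isoform in the bottom row, with the group mean and SD as a bar. In the top row the STZ libraries sit at 23.9 to 33.9 for the 43-nt event and the Control libraries at 46.4 and 54.6, while in the bottom row STZ B at 2.48 and Control A at 2.60 lie side by side for the 40-nt event.

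Marker genes of the cell types in the tissue were lower in STZ, higher in STZ or overlapping between the groups, in RPM of reads that fit an isoform. In this measure every STZ library lay below every Control library at 38.9% of all events. The share of events with every STZ library above every Control library was not counted. Where a marker gene had several events, its value is their sum, while that share is per event. Of the 13 cardiac muscle markers listed, 5 had events, and their sum was 60695.8 to 67201.8 in STZ and 128384.1 to 129776.3 in Control. Most of that gap came from Pln, the inhibitor of the calcium pump of the sarcoplasmic reticulum, with 29040 to 38770 in STZ and 102100 to 102400 in Control. Ttn overlapped, at 18730 to 22310 in STZ and 19910 to 21140 in Control, as did Ldb3. Tnnt2 was higher, at 8187 to 9098 in STZ and 5978 to 6074 in Control. The calcium release channel Ryr2 was lower in every STZ library, but had few reads, at 0.148 to 2.24 in STZ and 3.79 to 7.09 in Control. The endothelial marker Pecam1 had 4415 to 7232 in STZ and 1726 to 1931 in Control. The fibroblast and matrix genes Fn1 and Postn, 2 of 7, summed to 58.5 to 90.1 in STZ and 107.6 to 126.8 in Control. The smooth muscle genes Myh11 and Smtn, 2 of 5, summed to 420.5 to 540.7 in STZ and 421.2 to 424.5 in Control, and they parted in opposite directions. Myh11 had 178.0 to 301.6 in STZ and 58.3 to 75.2 in Control, and Smtn had 206.5 to 303.1 in STZ and 349.3 to 362.9 in Control. The leukocyte genes Ptprc, Cd68 and Cd74, 3 of 6, summed to 62.7 to 135.3 in STZ and 99.0 to 121.3 in Control, most of it from Cd68. Cd74 was lower in every STZ library, at 4.69 to 14.5 in STZ and 31.8 to 56.1 in Control. Of the 4 genes listed for skeletal muscle, Acta1 had 8.31 to 38.2 in STZ and 143.4 to 190.0 in Control. Tnnt3 was at 0 in every library, so Acta1 is not read here as a measure of skeletal muscle. No nerve marker had an event, and the part of cell makeup in the Rbfox2 level was not tested.

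Rbfox1, the paralogue with the same binding element, had 3 events on chromosome 16, and none had the reads to be tested. Its 93-nt exon had 27, 11 and 5 inclusion-only reads in STZ A, STZ B and STZ C, against 35 and 61 in Control A and Control B. Its 54-nt exon had 13, 6 and 4 inclusion-only reads in the STZ libraries, against 20 and 31 in the Control libraries. No exclusion-only read of Rbfox1 was found in any library, so Psi of its exons rests on inclusion-only reads. Psi of the 54-nt exon was 0.79, 0.65 and 0.67 in STZ, against 0.94 and 0.96 in Control. With no skipping read anywhere, Psi of the 54-nt exon was highest in the libraries with the most inclusion-only reads, so an adjusted p of 0.0378 without a minimum of reads (limma) is not read as a change of splicing. The third event, a 131-nt exon, had at most 1 informative read in a library, and Rbfox3 is not analysed here. Rbfox2 was therefore the only RBFOX gene with tested exons, and 0 of its 2 exons were called, with 0 under the read model and 0 at an unadjusted p under 0.05 in limma.

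Proteins that work with RBFOX2 in splicing complexes were examined next. This gene list and those that follow were chosen with earlier results of these data known. Their exons were not matched to all exons for depth, so their called shares are descriptions. Of 16 tested exons of 9 such genes, 1 rose and 4 fell (31.2% called), with a median change of Psi of -0.0042, against 231 risen and 482 fallen of 4769 over all exons, with a median of -0.01. Hnrnph1, which binds runs of guanine, fell at a 139-nt exon to a Psi of 0.313 ± 0.0252 in STZ, against 0.875 ± 0.0354 in Control (adjusted p = 0.00761, limma). Its paralogue Hnrnph2 fell at a 45-nt exon to 0.24 ± 0.0346 in STZ, against 0.58 ± 0.0566 in Control (adjusted p = 0.0214). Hnrnpc, which binds runs of uridine, fell at a 26-nt exon to 0.347 ± 0.0379 in STZ, against 0.64 ± 0.0141 in Control (adjusted p = 0.0159). A 1223-nt exon of Hnrnpc that contains this 26-nt stretch rose to 0.223 ± 0.0321 in STZ, against 0.06 ± 0.0141 in Control (adjusted p = 0.0209), so the Hnrnpc events share reads. The Hnrnph1 call held without any 1 of the libraries, while the Hnrnph2 and Hnrnpc calls were each lost without at least 4 of the 5.

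Among other regulators of heart splicing, 5 of 20 tested exons rose and 2 fell (35.0% called), with a median change of 0.0058. Over all exons 15% were called, without matching for depth, and this list too was chosen with earlier results known. The 7 calls became 1 without Control A and 1 without Control B. Tra2b, an activator related to SR proteins, rose at a 276-nt exon to 0.53 ± 0.0917 in STZ, against 0.06 ± 0.0141 in Control (adjusted p = 0.0159, limma). Mbnl2 and Mbnl1, which drive postnatal splicing in muscle, rose at a 95-nt exon to 0.523 ± 0.0513 in STZ, against 0.11 ± 0.0141 in Control, and at a 54-nt exon to 0.267 ± 0.0306 in STZ, against 0.10 in both Control libraries (adjusted p = 0.00926 and 0.0146). Ptbp1, a repressor of muscle and neuronal exons, fell at a 78-nt exon to 0.20 ± 0.0346 in STZ, against 0.55 ± 0.0424 in Control (adjusted p = 0.018). Celf1, an antagonist of MBNL proteins, fell at a 152-nt exon to 0.227 ± 0.0058 in STZ, against 0.315 ± 0.0071 in Control (adjusted p = 0.0135). Each of these calls was lost without Control A, and each but that of Mbnl2 was also lost without at least 1 other library.

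Genes known for exons that respond to RBFOX proteins had 89 tested exons in 39 genes, of which 5 rose and 12 fell (19.1% called), with a median change of -0.0067. The share is near the 15% of all exons. Ktn1, a kinesin-binding membrane protein, rose at a 72-nt exon to 0.953 ± 0.0058 in STZ, against 0.665 ± 0.0212 in Control (adjusted p = 0.00397, limma). Picalm, a clathrin assembly protein, rose at a 150-nt exon to 0.543 ± 0.104 in STZ, against 0.07 in both Control libraries. Dnm1l, the mitochondrial fission GTPase, rose at a 39-nt exon to 0.393 ± 0.107 in STZ, against 0.04 ± 0.0141 in Control, and Enah, an actin regulator, at a 57-nt exon to 0.0933 ± 0.0208 in STZ, against 0.015 ± 0.0071 in Control. Itga6, a laminin receptor subunit, fell at a 130-nt exon to 0.137 ± 0.0473 in STZ, against 0.59 in both Control libraries. Clstn1, a cargo adaptor of kinesin, fell at a 30-nt exon to 0.313 ± 0.0306 in STZ, against 0.605 ± 0.0495 in Control. Myl6, a light chain of non-muscle and smooth muscle myosin, fell at a 45-nt exon to 0.0667 ± 0.0115 in STZ, against 0.27 ± 0.0283 in Control, and Ablim1, an actin-binding protein, at a 105-nt exon to 0.05 ± 0.01 in STZ, against 0.22 ± 0.0141 in Control. The adjusted p-values of these 8 exons ran from 0.00397 to 0.0349 (limma). Of these, the Ktn1 call held without any 1 of the libraries and the others did not. On untransformed Psi the calls of Dnm1l and Enah were lost, each at an adjusted p of 0.0606, and that of Enah was also lost with Psi clipped to 0.05 to 0.95 (adjusted p = 0.15, limma). Whether RBFOX2 acts on these exons in these hearts was not tested.

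The exons of other genes whose Psi was nearest to that of the 43-nt Rbfox2 exon over the 5 libraries were in Nipsnap3b, Cyp4f13, Ccdc141, Sobp and G2e3. Their mean absolute difference of Psi from the 43-nt exon was 0.014, 0.02, 0.02, 0.026 and 0.026 in that order. The G2e3 exon had 0 exclusion-only reads in STZ and 0 in Control, so its Psi rests on inclusion-only reads. The Nipsnap3b exon had 5 exclusion-only reads in STZ and 0 in Control. All 5 had their lowest Psi in STZ A, at 0.67 to 0.72, as the 43-nt exon had. None was called with all libraries and the minimum of 10 reads, at adjusted p-values of 0.412, 0.55, 0.344, 0.143 and 0.574 (limma). They were picked for likeness of pattern, so their likeness is a description.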

How the data were processed

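RNA of mouse left ventricle was sequenced in 3 STZ and 2 Control libraries. The submitters' processing notes name CASAVA 1.8.2, TopHat (no version) and the build mm9, and the 6 tables are pairwise MISO comparisons of 1 library against another, per the file headers. The authors deposited Psi, a fraction, and read counts in 4 classes per event, a unit recorded as other, as is the difference of Psi. They also deposited a Bayes factor, a ratio of evidence, per the file headers. A further 36 columns of values per library were not used. Library values were the same in every table (0 differences).

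Exons with at least 10 informative reads in every library were tested. Psi was clipped to 0.01 to 0.99, put on the logit scale and compared with limma 3.58.1 in R 4.3.3, two-sided, with a prior variance that follows depth and Benjamini-Hochberg adjustment over all 4769 exons. An alternative was a quasi-binomial model of the reads. The planned measure of level, reads that fit both isoforms, was under 10 in most libraries and gave no test. Levels were therefore tested over all 4 classes, over reads that fit an isoform and over reads that fit neither, each per 1000000 of that kind of read in the library, as log2 with a pseudocount of 0.5 reads, after median centring. That choice was made after the data were seen. The scripts were tested on simulated data.

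Genes were named by the files (3665 exons) or by lengths matched to GENCODE vM21 (2584), while 26 were ambiguous and 341 unnamed. Where both gave a gene, 3252 of 3313 had the same symbol. The Rbfox2 exons and all gene lists were chosen with earlier results of these data known. Named from each list are up to 4 called exons with the largest rise and up to 4 with the largest fall, at most 1 a gene and direction, and the 5 exons nearest in Psi to the 43-nt exon, at most 1 a gene.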

Additional observations from a re-analysis of the deposited data

How the results depend on the processing

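Psi of the 43-nt Rbfox2 exon did not pass the test under any of 14 settings, and leaving out each library gave logit differences of -1.04 to -0.33. The 40-nt exon had -0.0395 to 0.343 (reversed without Control A) and could not be tested with a minimum of 20 reads. The 713 called exons became 204 under the rule on the authors' tables and 282 to 467 with 1 library left out. The RBFOX family had 1 call without a minimum of reads, the 54-nt exon of Rbfox1 with no skipping read. Calls among partners (5) became 8 in the read model and 2 to 4 with 1 library left out. Those among other regulators (7) became 4 under the authors' rule and 1 to 7 with 1 library left out, and those among RBFOX-linked genes (17) became 35 in the read model, 6 under the authors' rule and 2 to 11 with 1 library left out. Sobp passed in the read model (adjusted p = 0.0455). The planned measure of level, the reads that fit both isoforms, gave a log2 difference of -0.42 for the 43-nt event and 0.58 for the 40-nt event, against -0.89 and -1.21 over all 4 classes at the same scaling. Without a minimum its adjusted p-values were 0.508 and 0.444 (limma). With 1 library left out, the median-centred change of the 43-nt event was -0.76 to -0.53 over all classes, -0.85 to -0.46 in reads that fit an isoform and -0.74 to -0.49 in reads that fit neither. In reads that fit an isoform it was -0.59 with a pseudocount of 5 reads and -0.46 with quantile normalization. The cause of these differences was not tested. No paired analysis was possible because the library codes of the tables carry none of the replicate numbers of the labels. Few informative reads (10 to 13 in the STZ libraries at the 40-nt exon) limit what inclusion can show.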
